A study of Mus musculus with 3 samples.

Results

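The cells described here are C1q macrophages of the mouse nasal mucosa, chosen by their own counts in single-cell libraries. A barcode was kept with at least 500 unique molecular identifiers (UMIs, one per captured RNA molecule), at least 200 genes and at most 20% of its UMIs from mitochondrial genes. A kept barcode was a member when at least 2 of C1qa, C1qb and C1qc had 2 or more UMIs each, at least 1 of Csf1r, Adgre1 and Mrc1 was detected, and Cd3e was at 0. This selected 1063 of 32376 kept barcodes, or 3.28%. The levels of these genes chose the members, so they are given as a description only.

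The study, by its title, asked how lonidamine acts on inflammation and remodelling in papain-induced eosinophilic sinusitis of mice. Nasal mucosa of C57BL/6J mice was dissociated with collagenases and dispase and profiled with a droplet 3′ kit in 3 libraries. The papain + lonidamine library came from mice given 20 µg papain in the nose and 10 mg/kg lonidamine by gavage. The papain library came from mice given 20 µg papain in the nose and PBS by gavage. The PBS library came from mice given PBS in the nose. Each group held as many males as females by the design text, and all of its mice were pooled into 1 library. With 1 library a group there is no test between groups, and neither the spread between mice nor a batch can be told apart from the treatment. Intervals below are 95% intervals that cover counting error only. The papain library carries a library name of another cell type, Fibroblast, in its description, while its title and treatment label give the papain model.

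C1q is the recognition part of the classical complement pathway. Its A, B and C chains are encoded by C1qa, C1qb and C1qc, and in most tissues macrophages are the main source of their transcripts. Csf1r is the receptor for the growth factor CSF1 on which most tissue macrophages depend, Adgre1 encodes the F4/80 antigen, and Mrc1 encodes the mannose receptor CD206. Macrophages of a mucosa take up dying cells and debris, present antigen on MHC class II and release chemokines. Under the type 2 cytokines IL-4 and IL-13 they can take on alternative activation, with genes such as Retnla, Chil3, Arg1 and Ccl24. Papain is a cysteine protease widely used as an allergen in mice, and lonidamine is a small molecule known to act on hexokinase, lactate export, the mitochondrial pyruvate carrier and respiratory complex II.

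The papain + lonidamine library held 355 members among 12149 kept barcodes, the papain library 359 of 10712 and the PBS library 349 of 9515. These were 2.92% (exact binomial interval 2.63 to 3.24), 3.35% (3.02 to 3.71) and 3.67% (3.30 to 4.07) of kept barcodes. The share was thus lowest in the papain + lonidamine library and highest in the PBS library, and only the intervals of those 2 libraries did not meet. Of barcodes sorted as female, 2.99%, 3.42% and 2.88% were members, and of male ones 2.83%, 2.82% and 4.53%, so PBS was highest in males alone and the order turned in females. Among kept barcodes with a UMI of Ptprc, the pan-leukocyte gene CD45, members made up 9.85%, 13% and 15% in the same order. No member barcode sequence occurred in more than 1 library, while 22 to 36 kept barcode sequences were shared by each pair of libraries.

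The summed members gave 1837700 UMIs in the papain + lonidamine library, 2169545 in the papain library and 3064131 in the PBS library. The median member held 4756, 5640 and 7838 UMIs and 1821, 2024 and 2577 genes in that order, so PBS members were the deepest. Mitochondrial genes took 2.90%, 2.66% and 2.0% of the UMIs of the median member. Of the summed member UMIs, 18S ribosomal RNA took 3.45%, 3.66% and 0.593%. The 18S share was also lowest with PBS in all other kept barcodes, at 3.50%, 3.64% and 0.892%. A total without mitochondrial, rRNA and haemoglobin genes was taken as an alternative. Any other part of 18S in the results was not tested. Xist and the Y-linked genes sorted 282, 260 and 248 members by sex, and 84.0%, 76.9% and 45.6% of those were female. The sexes are therefore unevenly represented across the libraries, and ratios within each sex are given below where the counts allow.

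The receptor genes of the rule were well detected. Csf1r stood at 958 CPM (UMIs scaled to the same summed total in every library) with papain + lonidamine, 776 with papain and 653 with PBS, and Adgre1 at 358, 265 and 264 CPM. Members held 92.7% to 95.3% of all C1qa, C1qb and C1qc UMIs of a library. The rule fixed these values, so they say nothing of whether the label holds, and markers outside the rule were read for that. Outside the rule, the genes that most set members apart from the other kept barcodes in every library included Ms4a7, Fcrls, Trem2, C3ar1, Pf4, Ccl12, Cx3cr1, Aif1 and Gpr34, all known from macrophages or microglia. Eosinophil genes were nearly absent, with Epx, Prg3, Il5ra and Ear6 at 0 in all 3 libraries and the 7-gene list summing to 5.99, 2.30 and 1.63 CPM. Alveolar macrophage genes were also nearly absent, since Ear1 was at 0 in all 3 libraries and that list summed to 16.3, 11.1 and 15.7 CPM. Osteoclast genes summed to 365, 370 and 263 CPM, mostly the acid phosphatase gene Acp5 at 261, 279 and 164 CPM, with Calcr at 0 in all 3 libraries.

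Barcodes on either side of the threshold are given as a description. Members with exactly 2 C1q genes at 2 or more UMIs numbered 57, 57 and 28 in the papain + lonidamine, papain and PBS libraries, and their median C1q sum was 9, 9 and 12.5 UMIs. Barcodes just outside, with 1 such C1q gene, numbered 51, 39 and 23, with medians of 4, 4 and 5 UMIs. Csf1r was detected in 59.6%, 84.2% and 92.9% of those just inside and in 52.9%, 76.9% and 91.3% of those just outside. Adgre1 was detected in 31.6%, 40.4% and 28.6% of those just inside and in 29.4%, 23.1% and 30.4% of those just outside. The rule counts both receptors among its 3, so these shares partly follow from it. The median member held 35, 36 and 77 C1q UMIs, and C1qb gave 2576, 2784 and 3729 CPM. Mrc1, which the rule used as 1 of 3 receptors, gave 591 CPM with papain + lonidamine, 389 CPM with papain and 215 CPM with PBS.

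**Figure D1:**
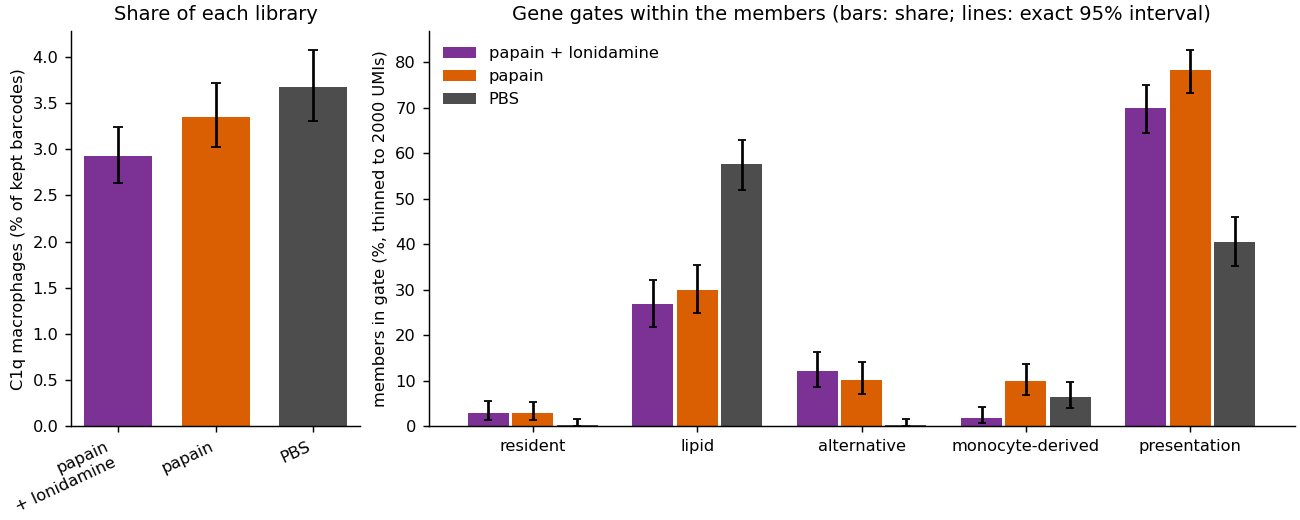
Left, members as a percentage of kept barcodes in each library, with exact binomial 95% intervals; right, percentage of members (each thinned to 2000 UMIs) that pass each gate of gene counts, with the same kind of interval. The lipid gate is highest in the PBS library (57.6%), and the presentation and alternative gates are higher in both papain libraries.

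The papain library was set against the PBS library to describe the members in the sinusitis model. Papain members carried far more transcripts of the alternative activation genes Retnla and Ccl24, of the cytokines Il10 and Il12b and of the chemokines Ccl5 and Ccl8, and far fewer of the lipid and lysosome genes Gpnmb, Ctsd, Fabp5 and Spp1. Of 11368 genes with at least 20 UMIs over both libraries (called measured here), 1067 were at least 2-fold higher in the papain library (9.39%) and 826 at least 2-fold lower (7.27%). The median of all measured genes was −0.08 on the log2 scale. Every log2 ratio below is of CPM with 0.5 added to each UMI sum, and a positive one means higher in the library named first. Each count of a list should be read against those percentages. Transcripts of other cells can reach any droplet as free RNA, so levels in the other kept barcodes (non-members) were read beside those in members. Of the genes with at least 50 UMIs, 587 were higher and 449 lower with papain, and 430 and 360 of those did not reach 2 times the level of the non-members in the library where they were higher.

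In the alternative activation list, 12 of 21 measured genes were at least 2-fold higher in the papain library and 1 was lower, and the list's median was 1.71. Retnla, which encodes the secreted protein RELMα, had 1315 UMIs in 53 papain + lonidamine members, 653 UMIs in 25 papain members and 0 UMIs in PBS members. Retnla was therefore at least 307-fold higher in papain members than in PBS members, taking 3 UMIs as the floor of the PBS library. Ccl24, the chemokine eotaxin-2 that attracts eosinophils, had 365, 366 and 19 UMIs in 66, 76 and 8 members of the papain + lonidamine, papain and PBS libraries. Its levels were 199, 169 and 6.2 CPM, and the papain over PBS log2 ratio was 4.73 (4.10 to 5.51). Both papain libraries were thus far above PBS for these genes in all members. In male members Ccl24 had a ratio of 2.38 for papain over PBS but −1.17 for papain + lonidamine over PBS. Rnase2a, a ribonuclease of the eosinophil-associated family, had 84, 58 and 0 UMIs, at least 27.3-fold higher with papain than with PBS. Ear2, of the same family, had 107, 47.9 and 4.90 CPM, with a papain over PBS log2 ratio of 3.25. Members of that family are near-identical in sequence, so the split of reads between them is uncertain.

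Arg1, which splits arginine into ornithine and urea, stood at 56.0, 79.7 and 10.4 CPM with papain + lonidamine, papain and PBS, and the papain over PBS log2 ratio was 2.91 (2.38 to 3.52). Chil3, encoding the chitinase-like protein Ym1, stood at 114, 169 and 51.6 CPM with a ratio of 1.71. Chil4 is a near-identical copy, so this value is uncertain. Fn1, fibronectin, and Clec10a, a lectin of dermal and mucosal macrophages, had ratios of 1.30 and 1.94. In male members Arg1 was at −1.72, Chil3 at −1.66 and Fn1 at −0.03, so these 3 directions held in female members and in the pool alone. Ccl17 was the only measured gene of the list past 2-fold in the other direction, with 41.0 CPM against 88.8 CPM and a ratio of −1.11, and it rested on 16 papain and 12 PBS members. Under a stricter member rule, with all 3 C1q genes at 2 UMIs and 2 of the receptors, the Ccl17 ratio was 0.05, so its direction was lost. Alox15 had 89 UMIs against 3, but 62.9% of the papain UMIs came from 1 barcode and the other barcodes of the papain library held it at 109 CPM. The receptor and transcription factor of the IL-4 pathway were near level, with log2 ratios of 0.15 for Il4ra, 0.19 for Il13ra1 and −0.20 for Stat6.

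The promoter windows of 4 genes are shown because the list and the lipid list moved apart and a STAT6-type site, TTC and GAA with any 4 bases between, is the textbook element of IL-4 responses. Each runs from 250 bases before to 50 after the start, 5′ to 3′ on the gene's strand, from RefSeq on GRCm38.p6, with matches in capitals. The windows are Retnla, chr16:48842359-48842658, plus strand; Lgals3, chr14:47373610-47373909, plus strand; Chil3, chr3:106167515-106167814, minus strand; and Ctsd, chr7:142387778-142388077, minus strand.
Retnla promoter window: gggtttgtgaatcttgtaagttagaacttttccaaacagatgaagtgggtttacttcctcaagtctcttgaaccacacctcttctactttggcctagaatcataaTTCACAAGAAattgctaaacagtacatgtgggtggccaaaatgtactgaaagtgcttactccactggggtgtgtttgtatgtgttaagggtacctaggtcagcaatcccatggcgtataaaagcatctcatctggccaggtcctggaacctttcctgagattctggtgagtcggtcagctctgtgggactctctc
Lgals3 promoter window: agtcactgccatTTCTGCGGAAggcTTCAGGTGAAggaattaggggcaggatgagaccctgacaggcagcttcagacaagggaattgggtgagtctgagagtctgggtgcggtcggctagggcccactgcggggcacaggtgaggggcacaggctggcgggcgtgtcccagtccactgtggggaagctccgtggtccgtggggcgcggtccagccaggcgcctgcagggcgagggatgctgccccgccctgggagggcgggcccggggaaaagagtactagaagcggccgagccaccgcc
Chil3 promoter window: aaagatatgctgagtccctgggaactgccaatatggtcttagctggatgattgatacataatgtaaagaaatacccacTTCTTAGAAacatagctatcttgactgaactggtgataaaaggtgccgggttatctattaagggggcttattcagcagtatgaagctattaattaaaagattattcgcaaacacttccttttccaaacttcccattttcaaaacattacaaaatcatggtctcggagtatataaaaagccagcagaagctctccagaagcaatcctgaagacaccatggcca
Ctsd promoter window: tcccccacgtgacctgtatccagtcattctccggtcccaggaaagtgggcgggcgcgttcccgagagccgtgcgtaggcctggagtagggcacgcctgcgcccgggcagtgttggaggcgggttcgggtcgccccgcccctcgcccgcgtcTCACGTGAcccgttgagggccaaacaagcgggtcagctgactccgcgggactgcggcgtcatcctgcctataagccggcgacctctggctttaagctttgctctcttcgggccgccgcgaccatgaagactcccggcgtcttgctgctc

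The STAT6-type pattern reads the same on both strands, and both were searched. It is found in 6.95% of all 32851 windows, and the related pattern with 3 bases between, TTCNNNGAA, in 8.30%. Retnla held 1 match, TTCACAAGAA, 145 to 136 bases before the start. Lgals3, a gene that was lower with papain, held 2 matches of the same pattern with other bases between, and Chil3 held TTCTTAGAA, a match of the shorter form. Counted by gene, 8.01% of all genes with a window held the STAT6-type pattern. Of the 12 alternative activation genes that were higher, 7 had a window and 2 of these held the STAT6-type pattern. Ccl17, the lower gene of that list, held it too, as did 1 of 5 genes of the list within 2-fold. Of the 11 lipid and lysosome genes that were lower, 8 had a window and 1 held it. Among the lipid genes within 2-fold, 2 of 20 held it. The pattern was thus not confined to the higher genes. TCACGTGA, the core of a known lysosomal gene element, was added after the values were seen. It is in 0.974% of all windows, and of the lower lipid genes with a window it was held by Ctsd, 1 of 8. Of the lipid genes within 2-fold it was held by 2 of 20, Atp6v1a and Gla. A match is a description of the letters in this window.

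**Figure D2:**
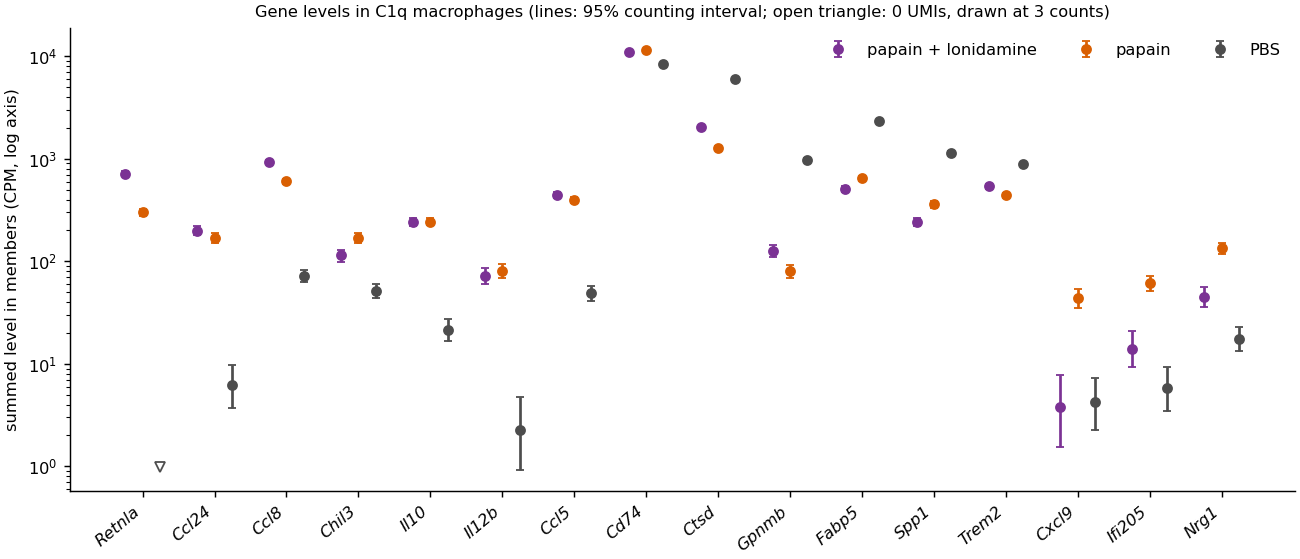
Level of selected genes in the summed members of each library, in CPM on a log axis, with 95% Poisson intervals of the UMI sum; the open triangle marks 0 UMIs and is drawn at the floor of 3 counts. Retnla is at 0 in the PBS library, Ccl24, Ccl8 and Il10 are above PBS in both papain libraries, and Gpnmb, Ctsd and Fabp5 are highest in the PBS library.

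Chemokines for eosinophils and other leukocytes included many higher genes: 10 of 22 measured were at least 2-fold higher with papain and 2 were lower, with a median of 0.89. Ccl8, a CCR8 ligand in mice, had 1710, 1306 and 219 UMIs with papain + lonidamine, papain and PBS, in 87, 82 and 41 members, and a papain over PBS log2 ratio of 3.07 (2.87 to 3.29). Ccl5, which attracts T cells and eosinophils, stood at 440, 396 and 48.6 CPM, a ratio of 3.02 (2.77 to 3.29), with 33.3%, 13.4% and 23.5% of its UMIs in the highest barcode of each library. The neutrophil chemokine Cxcl2 was among the most abundant, at 6465, 6577 and 3172 CPM, a ratio of 1.05. In the PBS library it was still present in 244 of 349 members. The monocyte chemokines Ccl2, Ccl7 and Ccl12 stayed within 2-fold, with ratios of 0.71, 0.30 and 0.30, as did Ccl3 (−0.15) and Ccl4 (0.56). Cxcl14 was the lower exception beside Ccl17, at 28.8, 18.9 and 79.6 CPM, a ratio of −2.06. Ccl11, which encodes eotaxin-1, was not measured in members, with 5, 0 and 3 UMIs, and was named after its counts were seen.

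Of the inflammatory NF-kB list, 11 of 28 measured genes were at least 2-fold higher with papain and none was lower, with a median of 0.75. The same list had a median of 0.85 in non-members, so its higher level was not confined to members. Il6 stood at 105, 90.8 and 11.1 CPM with papain + lonidamine, papain and PBS, a papain over PBS log2 ratio of 3.02 (2.50 to 3.60). Il12b, the p40 chain of IL-12 and IL-23, had 132, 175 and 7 UMIs in 23, 18 and 4 members, a ratio of 5.05 (4.07 to 6.48). Few cells thus carried Il12b, while Il1b, detected in 314, 321 and 306 members, was nearly universal and differed by 0.64. Ptgs2, the inducible cyclooxygenase, had a ratio of 1.86, and the sensor Nlrp3, the pathway genes Nfkb1 and Rel and the receptor Cd40 had ratios of 1.32, 1.75, 1.23 and 2.43. Tnf stood at 1135, 898 and 655 CPM, a ratio of 0.46, within 2-fold. Of the Fc and pattern recognition receptors, 5 of 25 were higher and none lower (median 0.23), led by the lectin Clec4e at 1.82.

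Of 25 measured anti-inflammatory and repair factors, 7 were at least 2-fold higher with papain and none was lower, with a median of 0.31. The median was −0.07 in female and 0.55 in male members and 0.93 in non-members, so the list as a whole was not raised in both sexes. Il10 had 442, 530 and 66 UMIs in 69, 88 and 18 members of the papain + lonidamine, papain and PBS libraries, with a papain over PBS log2 ratio of 3.49 (3.13 to 3.90). Il1rn, the interleukin 1 receptor antagonist, stood at 598, 845 and 107 CPM, a ratio of 2.98. The EGF-family growth factors Areg, Hbegf and Nrg1 had ratios of 2.98, 2.88 and 2.91, and the checkpoint ligand Cd274 had 1.59. By contrast Tgfb1 (−0.15), Igf1 (−0.49) and Osm (−0.17) stayed within 2-fold. The checkpoint list held 2 higher genes of 16 and none lower, with a median of 0.31.

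MHC class II genes were higher by less than 2-fold. The list had 2 of 15 measured genes past 2-fold, Ciita (1.21) and Cd40 (2.43), none lower, and a median of 0.50. H2-Aa stood at 4714, 5619 and 2909 CPM with papain + lonidamine, papain and PBS, a papain over PBS log2 ratio of 0.95 (0.91 to 0.99), and Cd74 at 11130, 11581 and 8358 CPM, a ratio of 0.47. The distribution over cells shows more: among members thinned to 2000 UMIs, the median H2-Ab1 count was 7, 9 and 0 UMIs, and 23.2%, 15.7% and 51.4% of members had none. For Cd74 the thinned median was 22.5, 25 and 3 UMIs, while the 90th percentile was 54, 46.8 and 54 UMIs. PBS members thus included cells as high in Cd74 as those of the papain libraries beside many cells with little.

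Lipid and lysosome genes were lower. Of 39 measured, 11 were at least 2-fold lower with papain and 1 was higher, with a median of −0.63. Gpnmb, a lysosomal glycoprotein of lipid-laden macrophages, had 231, 173 and 2974 UMIs in 41, 48 and 122 members of the papain + lonidamine, papain and PBS libraries. The papain over PBS log2 ratio of Gpnmb was −3.60 (−3.84 to −3.38), and 41.6% of its papain + lonidamine UMIs came from 1 barcode. Ctsd, the lysosomal protease cathepsin D, was more widespread, with 2016, 1268 and 5997 CPM, a ratio of −2.24 (−2.30 to −2.18). Among thinned members the median Ctsd count was 2, 1 and 8 UMIs, so the bulk of the PBS members, and not a few cells, was high. The fatty acid binding proteins Fabp5 and Fabp4 had ratios of −1.86 and −2.63, osteopontin, Spp1, −1.68, the tetraspanin Cd63 −1.43, galectin-3, Lgals3, −1.42, and lysozyme, Lyz2, −1.07. Trem2, the lipid-sensing receptor, lay at the threshold with 538, 441 and 883 CPM, a ratio of −1.0 (−1.11 to −0.90). Apoe, the most abundant of them, had 24499, 20889 and 40021 CPM, a ratio of −0.94. The sole higher gene, Ctsk, had 91.4% of its 70 papain UMIs in 1 barcode. Ctsb (−0.94), Plin2 (−0.84) and Psap (−0.07) did not reach 2-fold, and the cholesterol exporter Abca1 was at 0.72.

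The lipid list was also lower outside the members, to a smaller degree. Its median papain over PBS log2 ratio was −0.33 in a monocyte gate of 101 papain and 368 PBS barcodes, −0.37 in a dendritic gate of 143 papain and 115 PBS barcodes and −0.44 in all non-members, against −0.63 in the members. Ctsd was at −1.19, −1.37 and −0.54 in those 3 sets, and Gpnmb was at −0.30 in the monocyte gate and −2.57 in non-members. The alternative activation list had medians of 1.06, 0.59 and 0.61 in the same sets, against 1.71 in members. No test of these differences was possible with 1 library a group.

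Of 19 measured glycolysis genes, 5 were at least 2-fold lower with papain and none was higher (median −0.57). Gapdh stood at 390, 478 and 1038 CPM with papain + lonidamine, papain and PBS, a papain over PBS log2 ratio of −1.12, and Eno1, Pgam1, Tpi1 and Pkm had ratios of −1.48, −1.44, −1.26 and −1.03. In the non-members Gapdh and Eno1 had ratios of −0.91 and −1.45, so the lower level of these genes was not confined to members. Sterol synthesis genes were lower too, with 8 of 22 past 2-fold and none higher (median −0.74), led by Fdps at −1.90 and Msmo1 at −1.43. The same list had a median of −1.03 in non-members. Nuclear oxidative phosphorylation genes had none of 26 past 2-fold (median −0.28), and of 12 mitochondrially encoded genes 2 were higher (median 0.31). The hypoxia list had 2 of 16 higher and none lower (median 0.50). Without members that carried markers of other classes, that median was −0.06. Ndrg1 had a ratio of 2.54, but non-members of the papain library held Ndrg1 at 146 CPM against 109 CPM in members. Of 19 antioxidant genes 4 were higher and 1 lower (median 0.33), and of 13 iron and haem genes 3 were higher and none lower (median −0.06). The higher genes Gsto1, Prdx6 and Lcn2 among these stood at 1880, 1675 and 900 CPM in non-members of the papain library, above the 664, 578 and 216 CPM of the members.

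The remaining lists are given in brief for papain over PBS. Interferon-stimulated genes had 10 of 29 higher and 2 lower (median 0.65), with Ifi205 at 3.34, Cxcl9 at 3.32, Oasl1 at 2.97 and Cxcl10 at 1.22, and with Ifit2 at −1.51 and Ifit3 at −1.02. Complement genes outside the rule had 4 of 13 higher and none lower (median 0.15). C3, the central component, stood at 190, 232 and 26.8 CPM with papain + lonidamine, papain and PBS, and at 149 CPM in non-members of the papain library. Tissue-resident perivascular genes had 3 of 14 higher and none lower (median −0.24), efferocytosis and scavenger receptors 1 of 20 higher and 1 lower (median 0.21), with Cd68 lower at −1.59. Cytokine receptors had 3 of 26 higher and none lower (median 0.24), including the monocyte chemokine receptor Ccr2 at 1.60. Transcription factors had 3 of 33 higher and 1 lower (median −0.10). The lower one, Bhlhe41, was at −2.11. Matrix genes and proteases had 7 of 19 higher and 1 lower (median 0.53), with the protease Mmp19 at 2.01 and the collagenase Mmp13 at 2.68, although 45.5% of the papain UMIs of Mmp13 came from 1 barcode. Arachidonate genes had 3 of 17 higher and 2 lower (median −0.05), and the lonidamine target list had none of 20 higher and 2 lower (median −0.07). The control lists were close to level: dissociation response 1 of 21 higher and none lower (−0.02), ribosomal proteins none of 20 (−0.05), cell cycle 1 of 15 higher and 1 lower (−0.03). The single higher cell cycle gene was Mki67, at 140, 141 and 26.4 CPM, whereas Top2a was at −0.42 and Ube2c at −1.36.

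**Figure D3:**
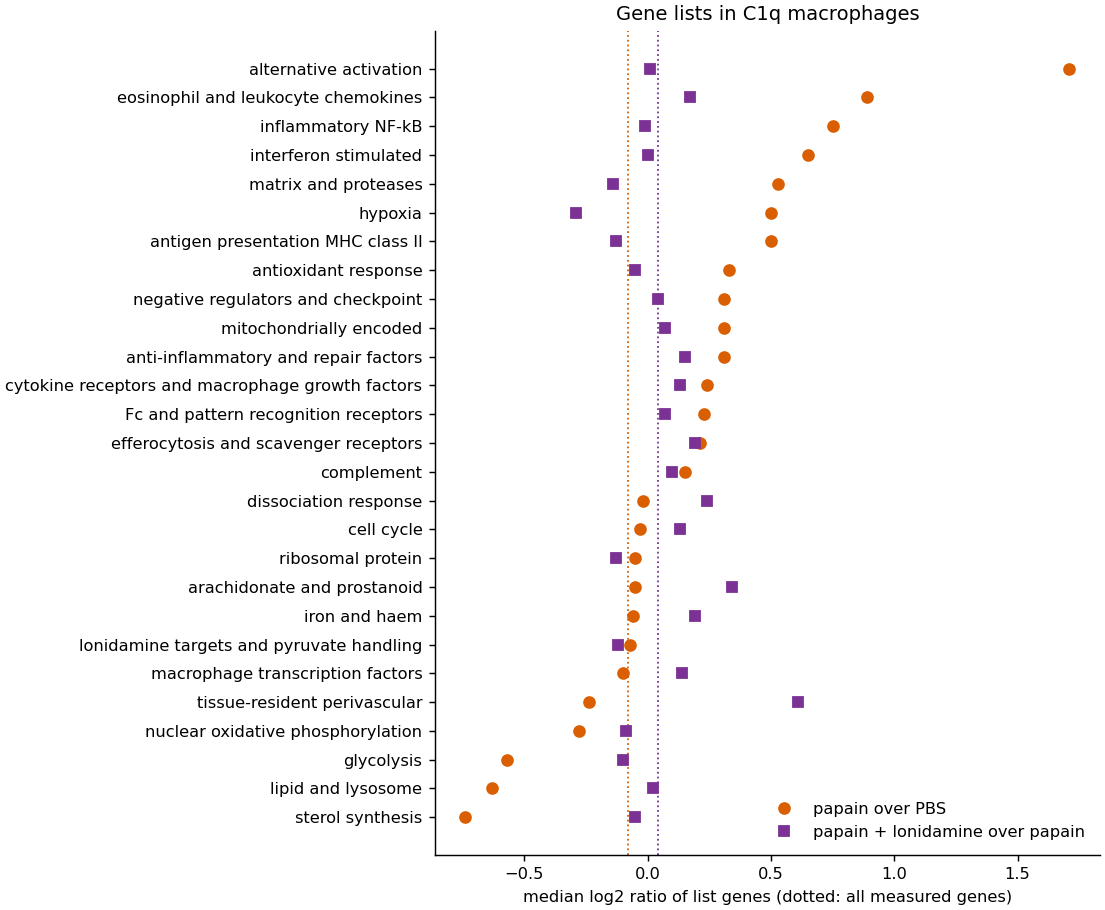
Median log2 ratio of each gene list in the members for papain + lonidamine over papain (squares) and papain over PBS (circles), on a log2 axis; dotted lines give the median of all measured genes in each comparison, and no error is drawn, since there is 1 library a group. The alternative activation list is highest (1.71) and the sterol list lowest (−0.74) for papain over PBS, while most lists lie near 0 for papain + lonidamine over papain.

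Genes with at least 50 UMIs that were past 2-fold, at least 2 times the non-member level in the library where they were higher, and not opposed between the sexes were ranked by ratio, 153 of them higher with papain and 87 lower. Larger ratios fell outside these conditions, such as Chil4 at 10.23 with 979 CPM in papain members and 5531 CPM in papain non-members, and Ifi202b with 103 papain and 0 PBS UMIs. These were named after their values were seen. Beside Retnla, Rnase2a, Il12b, Ccl24, Ctsk and Il10, the 10 highest ranked for papain over PBS were Il4i1, an amino acid oxidase (3.96), Mmp25, a membrane-anchored protease (3.83), Ccr7, the lymph node homing receptor (3.80), and the olfactory receptor gene Olfr209, all of whose papain UMIs lay in 1 barcode. The 10 lowest ranked were mostly single-barcode events as well. Olfr139, Olfr330, Olfr958 and Iglc2 had 99.0% to 100% of their PBS UMIs in 1 barcode, Olfr1044 had 188 UMIs in 3 barcodes, and Igha and Jchain, antibody genes of plasma cells, had 99.0% and 98.8% in 1 barcode. The others were Gpnmb, Fabp4 and the metalloprotease gene Adam33, which had 62 UMIs in 32 PBS members against 7 in 5 papain members. Olfactory receptor genes form a large family of similar sequences, so their assignment is uncertain.

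The papain + lonidamine library was set against the papain library to describe the members under lonidamine. Members of these 2 libraries were far more alike: of 10646 measured genes, 232 were at least 2-fold higher with lonidamine (2.18%) and 282 at least 2-fold lower (2.65%), with a median of 0.04. Higher in summed level were Retnla and, from few cells, the tissue-resident genes Cd163 and Folr2. Lower were the chemokine Cxcl9, the interferon-inducible gene Ifi205 and the growth factor Nrg1. Of the genes with at least 50 UMIs, 69 were higher and 104 lower, and 44 and 95 of these did not reach 2 times the level of the non-members in the library where they were higher.

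Nrg1, neuregulin 1, had 83 UMIs in 43 papain + lonidamine members, 290 UMIs in 99 papain members and 54 UMIs in 28 PBS members, a papain + lonidamine over papain log2 ratio of −1.56 (−1.94 to −1.21). The ratio was −1.74 in female and −0.28 in male members, and the non-members, at 28.2 and 31.4 CPM, had −0.15. Among thinned members, Nrg1 was detected in 6.54% (4.04 to 9.91) with papain + lonidamine, 19.2% (15 to 24) with papain and 2.17% with PBS. The unthinned shares were 12.1%, 27.6% and 8.02%. Olfactory neurons of the 3 libraries had Nrg1 in 8.51%, 7.44% and 6.32% of thinned barcodes. Those shares lay above the ones of papain + lonidamine and PBS members and below the one of papain members, so neurons give no background level for this gene. Cxcl9, a CXCR3 ligand, had 7, 95 and 13 UMIs in 5, 15 and 6 members, a papain + lonidamine over papain ratio of −3.43 (−4.88 to −2.42). Ifi205, an interferon-inducible gene, had 26, 132 and 18 UMIs in 21, 62 and 10 members, a ratio of −2.08 (−2.77 to −1.49) that was −2.08 in female and −1.97 in male members. Cxcl9 stood at 3.81, 43.8 and 4.24 CPM and Ifi205 at 14.1, 60.8 and 5.87 CPM in the 3 libraries, so Cxcl9 was near its PBS level with lonidamine and Ifi205 lay between the other 2 libraries. The interferon list as a whole had 1 of 30 genes higher and 2 lower, with a median of 0.00. Cxcl10 was at 0.49 and Oasl1 at 0.83, so these interferon-responsive genes did not share the direction of Cxcl9 and Ifi205.

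The alternative activation list had 5 of 22 measured genes at least 2-fold higher with lonidamine and 1 lower, with a median of 0.01. Retnla was 2.38-fold higher, a log2 ratio of 1.25 (1.11 to 1.39), which was 1.70 in female and 0.03 in male members. Ear2 was at 1.15, and at −0.13 in male members. Ccl17 was at 1.28, but 33.7% of its papain + lonidamine UMIs and 50.6% of its papain UMIs came from 1 barcode each, and its ratio was −0.23 under the stricter member rule. In the other direction Arg1 and Chil3 were at −0.51 and −0.57, within 2-fold, and Alox15 was at −1.82. The genes of this list therefore moved in both directions between these libraries.

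Tissue-resident perivascular genes had 3 of 15 measured genes higher with lonidamine and none lower, with a median of 0.61, the highest median of the 27 lists in this comparison. Cd163, the haemoglobin scavenger receptor, had 66, 36 and 2 UMIs in 17, 9 and 1 members of the papain + lonidamine, papain and PBS libraries, a papain + lonidamine over papain log2 ratio of 1.10 (0.51 to 1.74). Folr2, a folate receptor of resident macrophages, had 39, 19 and 15 UMIs in 16, 14 and 13 members, a ratio of 1.26. Of the papain UMIs of Cd163, 47.2% came from 1 barcode. Among thinned members of the papain + lonidamine and papain libraries, Cd163 was detected in 3.27% (1.58 to 5.93) and 2.88% (1.32 to 5.39). Folr2 was detected in 3.27% (1.58 to 5.93) and 2.24% (0.904 to 4.55), so for both genes the intervals overlapped. F13a1, coagulation factor XIII A, had 83.8, 41.9 and 17.3 CPM, just under 2-fold, and the selenium carrier Selenop had 1392, 940 and 591 CPM, a ratio of 0.57. Lyve1 and Timd4, classical markers of resident macrophages, were nearly absent, with 1, 7 and 0 UMIs and 4, 2 and 2 UMIs, and were named after these counts were seen. Most of these genes had few UMIs, so the counting intervals are wide. Red blood cell genes summed to 252, 4.61 and 4.57 CPM in members of the 3 libraries and to 715, 85.3 and 66.4 CPM in non-members. In members, neutrophil genes summed to 263, 162 and 70.5 CPM. The part of both gene sets in the higher values was not tested.

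Genes tied to the known targets of lonidamine did not move past 2-fold. In the lonidamine target and pyruvate list none of 20 measured genes was higher or lower, with a median of −0.12. The hexokinase Hk2 stood at 158, 135 and 95.3 CPM with papain + lonidamine, papain and PBS, a papain + lonidamine over papain log2 ratio of 0.23 (−0.01 to 0.47). The lactate exporter Slc16a3 had 28, 22 and 80 UMIs, a ratio of 0.58 with an interval of −0.27 to 1.46, so its depth leaves a 2-fold change within reach. The pyruvate carrier genes Mpc1 and Mpc2 were at −0.25 and −0.11, and the complex II genes Sdha and Sdhb at 0.23 and 0.01. Glycolysis had none of 19 higher and 1 lower (median −0.10), nuclear oxidative phosphorylation none of 26 (−0.09), and mitochondrially encoded genes none of 13 (0.07). The hypoxia list had none of 14 higher and 2 lower (median −0.29). Ndrg1 stood at 53.9, 109 and 18.6 CPM, a ratio of −1.01, but at 0.85 in male members, and Vegfa was at −0.72. These are transcript levels of the targets and say nothing of their activity.

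The chemokine list had 1 of 22 higher and 1 lower (median 0.17), and the NF-kB list none of 28 (−0.01), with Il1b at −0.23, Tnf at 0.34, Il6 at 0.21 and Il12b at −0.17. Il10 was level at −0.02 (−0.21 to 0.16), while Il1rn and Hbegf were at −0.50 and −0.65. Repair factors had 1 of 26 higher and 1 lower (0.15). Lipid and lysosome genes had 1 of 39 higher and 1 lower (0.02), with Ctsd at 0.67, Gpnmb at 0.66, Spp1 at −0.57 and Fabp5 at −0.35. The MHC class II list had none of 14 (−0.13), with H2-Aa at −0.25. Efferocytosis had none of 20 (0.19), cytokine receptors none of 27 (0.13), sterol synthesis none of 23 (−0.05), ribosomal proteins none of 20 (−0.13), cell cycle none of 14 (0.13) and checkpoint genes none of 16 (0.04). Fc and pattern receptors had 2 of 25 higher and none lower (0.07), complement 1 of 16 higher and none lower (0.10), and matrix genes 1 of 20 higher and none lower (−0.14). Transcription factors had 2 of 33 higher and none lower (0.14), namely Bhlhe41 at 1.12 and Tfec at 1.01. Iron and haem genes had 1 of 13 higher and 1 lower (0.19), antioxidant genes 1 of 19 higher and none lower (−0.05), and arachidonate genes 1 of 17 higher and 2 lower (0.34). Of 21 dissociation genes, 2 were higher and none lower (0.24). These were the heat shock genes Hspa1a at 1.13 and Hspa1b at 1.57, near-identical copies whose split is uncertain.

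The same ranking for papain + lonidamine over papain, of 24 higher and 8 lower genes, named, beside those above, Stard8 (1.52), Sult1a1 (1.49), the MHC class I-like gene H2-K2 (1.38), the potassium channel gene Kcnk13 (1.30) and Ifit2 (1.26) as higher. Kcnk13 stood at 20.7, 8.30 and 30.0 CPM and H2-K2 at 38.6, 14.7 and 30.4 CPM in papain + lonidamine, papain and PBS members, so papain members were the low ones. The lower genes were Ggct (−1.28), the oxidised LDL receptor Olr1 (−1.15) and Exoc3l4 (−1.06), with Ctsk and Olfr209 resting on 1 papain barcode. Olr1 stood at 45.2, 101 and 10.8 CPM in papain + lonidamine, papain and PBS members. Olfr810, Olfr1340 and Olfr672 were the highest ranked, with 91.5% to 100% of their papain + lonidamine UMIs in 1 barcode each. The haemoglobin genes Hbb-bt, with 75 UMIs against 0, Hbb-bs at 5.86 and Hba-a2 at 4.81 were not ranked, since non-members held more of them.

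Set directly against the PBS library, the papain + lonidamine members differed about as widely as the papain members did. Of 11168 measured genes, 929 were at least 2-fold higher (8.32%) and 776 at least 2-fold lower (6.95%), with a median of −0.02. This comparison shares a library with each of the other 2, so it adds no independent view. Alternative activation had 13 of 22 higher and none lower (median 1.45), chemokines 10 of 22 higher and 1 lower (0.85), NF-kB 13 of 28 higher and none lower (0.86), and tissue-resident genes 7 of 15 higher and none lower (0.38). In non-members these lists had medians of 0.85, 0.54, 0.93 and 0.63 in that order. The NF-kB and tissue-resident medians were thus higher in non-members than in members. Lipid and lysosome genes had none of 38 higher and 11 lower (−0.68), glycolysis none of 19 higher and 8 lower (−0.81), sterol synthesis none of 22 higher and 5 lower (−0.77), and nuclear oxidative phosphorylation none of 26 higher and 3 lower (−0.36). Retnla was at least 731-fold higher than in PBS members and Rnase2a at least 46.7-fold. Cd163 (5.47), Il12b (4.88), Ear2 (4.40), Oasl1 (3.80), Il10 (3.47) and Ccl5 (3.17) followed among the 10 highest of the 145 genes that met the same conditions as above, which also held the single-barcode genes Olfr1340 and Olfr810. Ccl24 (4.97) did not meet them, since its sexes were opposed. Gpnmb (−2.95), Fabp4 (−2.67) and Sergef (−2.75) were among the lowest, beside the single-barcode olfactory receptor and antibody genes named above.

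Depth differs between libraries, so shares of cells were taken after thinning each member to 2000 UMIs, which left 306, 313 and 323 members with papain + lonidamine, papain and PBS. Retnla was detected in 13.1% and 5.43% of thinned members with papain + lonidamine and papain, and in 0 of 323 with PBS, which by the 3-count floor allows a share of cells with a Retnla UMI of up to 0.929%. The unthinned shares were 14.9%, 6.96% and 0%. Ccl24 was detected in 13.1%, 15% and 1.55%, Il10 in 16.0%, 19.5% and 2.79%, and Gpnmb in 7.52%, 7.67% and 26.3% of thinned members. Unthinned, these were 18.6%, 21.2% and 2.29% for Ccl24, 19.4%, 24.5% and 5.16% for Il10, and 11.5%, 13.4% and 35.0% for Gpnmb. Olfactory neurons, which should lack these genes, gave the background: each of the 4 was found in at most 0.662% of thinned neurons, whose median depth before thinning was 7121, 7770 and 8182 UMIs. Bpifa1, a gland product, was in contrast found in 37.6%, 45.7% and 28.5% of thinned members and in 32.7%, 37.2% and 22.6% of thinned neurons, and is read as background in both.

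Gates of 4 genes each, of which 2 had to be detected, divided the thinned members further. A gate is a range of counts and not a cell type. The lipid gate (Gpnmb, Trem2, Fabp5, Spp1) held 26.8% (21.9 to 32.1) with papain + lonidamine, 30% (25 to 35.4) with papain and 57.6% (52.0 to 63.0) with PBS, and 43.9%, 48.5% and 73.6% unthinned. The alternative gate (Retnla, Ccl24, Ccl8, Chil3) held 12.1%, 10.2% and 0.310%, and 18.6%, 16.2% and 1.15% unthinned. The presentation gate, with at least 3 UMIs of at least 2 of H2-Ab1, H2-Aa, H2-Eb1 and Cd74, held 69.9%, 78.3% and 40.6%, and 73.8%, 81.9% and 47.9% unthinned. PBS members were thus mostly in the lipid gate, and members of both papain libraries mostly in the presentation gate. The monocyte-derived gate (Ccr2, Ly6c2, Plac8, Vcan) held 1.96% (0.723 to 4.22), 9.90% (6.83 to 13.8) and 6.50% (4.07 to 9.77), lowest with papain + lonidamine. Unthinned it held 4.79%, 14.5% and 12%. The resident gate (Lyve1, Folr2, Cd163, Cbr2) held 2.94%, 2.88% and 0.310%, but Cbr2 was at 4222, 3941 and 818 CPM in non-members, above the 929, 1119 and 137 CPM of members. Neurons passed any of these gates in at most 1.11% of barcodes.

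**Figure D4:**
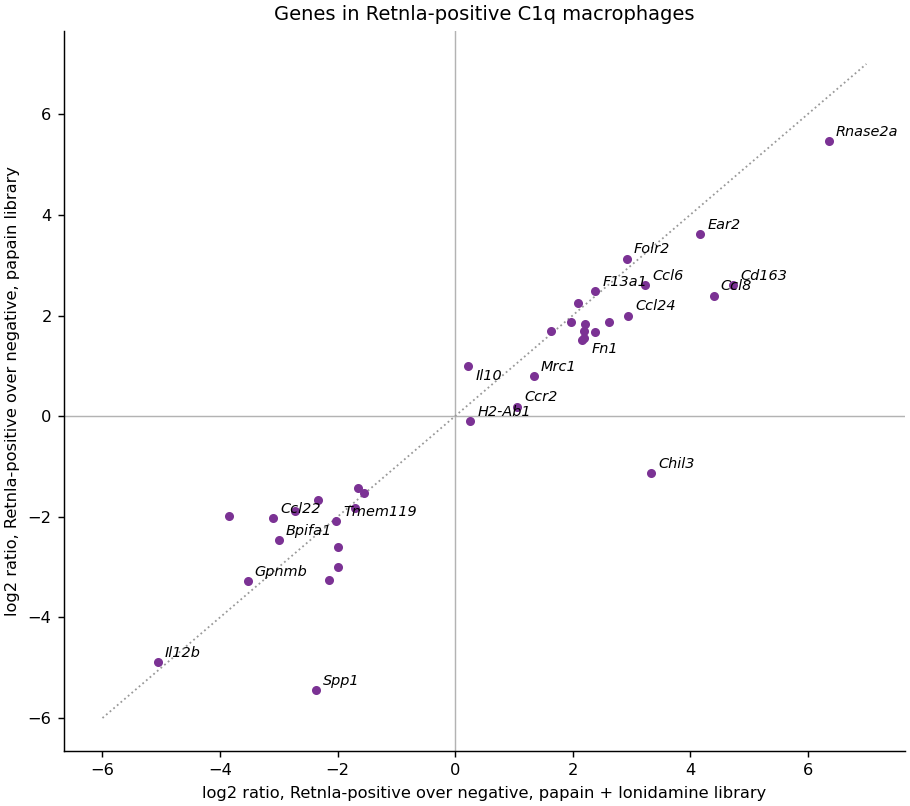
Members with and without a Retnla UMI in the papain + lonidamine and papain libraries, compared by the log2 ratio of CPM for other genes (x axis, papain + lonidamine; y axis, papain; dotted line, equal ratios); the PBS library held no Retnla-positive member. Rnase2a, Ear2, Cd163 and Ccl8 lie on the positive side and Gpnmb and Spp1 on the negative side in both libraries.

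Retnla was concentrated in few cells, 53 papain + lonidamine and 25 papain members, and the 10 highest of these held 56.4% and 89.6% of its UMIs. The split by Retnla was made after its values were seen, and is given as a description with no test. Retnla-positive members had a median of 3460 UMIs against 4938 in Retnla-negative ones with papain + lonidamine, and 5544 against 5658 with papain. Rnase2a had log2 ratios of 6.36 and 5.46 for Retnla-positive over Retnla-negative members in the papain + lonidamine and papain libraries, Ear2 4.17 and 3.62, Ccl8 4.40 and 2.39, Cd163 4.73 and 2.60, and Folr2 2.92 and 3.13. Gpnmb was at −3.53 and −3.28 and Spp1 at −2.37 and −5.45, so these 2 genes, named after their values were seen, were low in Retnla-positive cells. The gates did not show this: of thinned members in the alternative gate, 27% with papain + lonidamine and 25% with papain were also in the lipid gate, against 26.8% and 30% of all thinned members. Il12b was at 0 UMIs in the Retnla-positive members of both libraries, against 132 and 175 UMIs in the Retnla-negative ones. Ccl24 was detected in 60.4% and 56.0% of Retnla-positive members and in 11.3% and 18.6% of the others. Chil3 did not follow, at 3.34 with papain + lonidamine and −1.14 with papain, and H2-Ab1 was level at 0.26 and −0.10.

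Markers of other cells were read in the members beside these results. Gland and secretory genes summed to 5400 CPM with papain + lonidamine, 10139 with papain and 617 with PBS, which was 21.9%, 31.9% and 5.0% of their level in non-members. Epithelial genes summed to 718, 1137 and 293 CPM, fibroblast genes to 291, 172 and 91.4 CPM and olfactory neuron genes to 2481, 2340 and 6426 CPM. B and plasma cell genes summed to 54.4, 32.7 and 1892 CPM, and in the PBS library almost wholly to Igkc, at 1765 CPM. T cell genes summed to 71.8, 44.7 and 98.6 CPM, mostly Cd4. Monocyte genes summed to 430, 557 and 302 CPM, mostly Ccr2. Dendritic genes summed to 63.7, 73.7 and 31.0 CPM, which was 84.8%, 104% and 36.9% of their level in non-members. Ccr7, of the dendritic list, was found in 3 of 23 Il12b-positive papain + lonidamine members and in 5.42% of the others. With papain these were 5 of 18 and 8.21%, and with PBS 0 of 4 and 1.16%. Free RNA, shared droplets and expression by the members cannot be told apart for these genes, and their part in the results above was not tested.

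**Figure D5:**
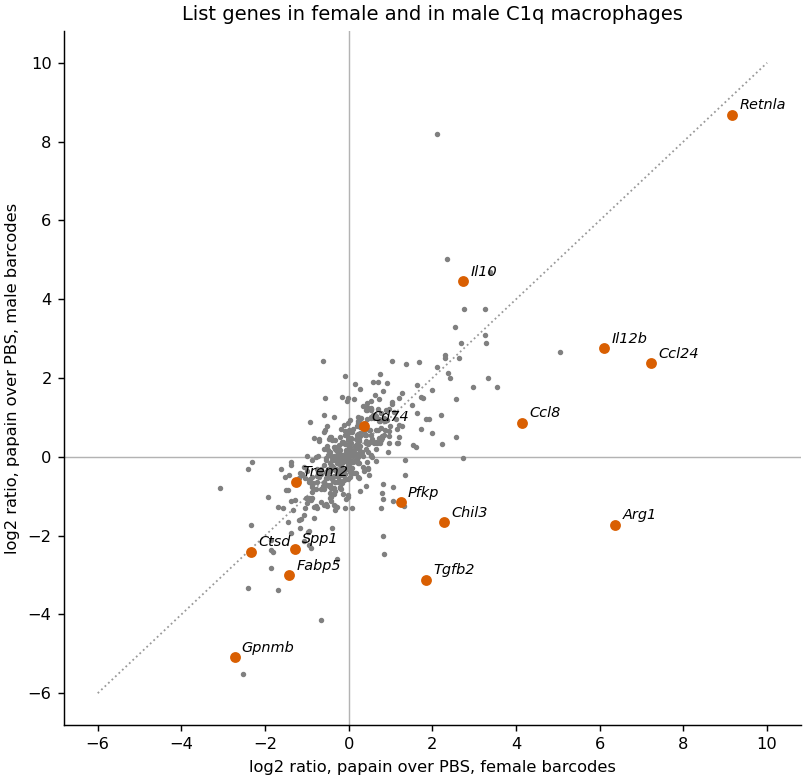
Log2 ratio of papain over PBS in female members (x axis) and male members (y axis) for the list genes with enough UMIs in both sexes; the dotted line marks equal ratios, and Retnla, at 0 in PBS members, is placed by the 0.5 added to each sum. Of 472 points, 356 lie on the same side of 0 in both sexes, while Chil3 and Arg1 are higher in female and lower in male members.

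Members of both sexes were pooled, and the sexes are different mice of a group. The papain + lonidamine members held 237 female and 45 male barcodes, the papain members 200 and 60, and the PBS members 113 and 135. The lipid and lysosome list was lower in both, with papain over PBS medians of −0.74 in female and −0.76 in male members, and Ctsd had −2.33 and −2.41. Il10 was higher in both, at 2.74 and 4.46, as was the NF-kB list, at 0.57 and 1.09. The alternative activation list differed, at 2.28 in female and 0.63 in male members. Ccl24 was at 7.22 and 2.38 and Ccl8 at 4.14 and 0.86. The lipid gate held 29.3% of female and 13.3% of male papain + lonidamine members and 30.9% and 33.3% of papain members, against 59.3% and 64.1% of PBS members. The alternative gate held 15.3% of female papain + lonidamine members and 0 of 45 male ones, which allows a share of up to 6.67%. It held 13.1% of female and 5.56% of male papain members, against 0% and 0.763% in PBS members. For papain + lonidamine over PBS, male members had log2 ratios of −1.17 for Ccl24, −1.24 for Ccl8, −1.61 for Chil3 and −1.93 for Arg1, against 4.97, 3.70, 1.14 and 2.41 in all members, and these male values rest on 45 papain + lonidamine barcodes.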

How the data were processed

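Gene-by-barcode UMI count matrices of 3 libraries were deposited by the authors, 1 per group and unnormalised, with 55357 genes. Counting used Cell Ranger, version 7.1.0 per the file headers and 2.1.1 per the submitters' processing notes, which also give the build GRCm39.

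UMIs of member barcodes were summed per library and scaled to CPM over all summed UMIs. A value of 0.5 was added to both sums before a log2 ratio was taken. For 2 Poisson counts the conditional binomial gives the 95% interval of the ratio, shares have exact Clopper-Pearson intervals, and floors take 3 counts. None of these intervals holds the spread between mice, and no test was made since a group is 1 library. The ratio and interval were tested on simulated Poisson counts with known fold changes. The interval assumes such counts, so this could not show how well it holds for UMIs that lie together in few barcodes.

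Genes with at least 20 UMIs over a pair of libraries were measured, and 2-fold was the call. Genes of the member rule were left out of counts. Named genes had at least 50 UMIs, a call, no opposite sign between the sexes where each held 10 UMIs, and 2 times the non-member level in the higher library. The 10 highest and 10 lowest were taken, without sex-linked, mitochondrial, rRNA and predicted genes, beside members of 27 gene lists (571 genes) and 22 marker lists. The microglia marker list and some single genes are not reported here. Members, lists and rules were chosen with earlier results of these data known. Members were thinned to 2000 UMIs for shares (seed 1). The monocyte gate took barcodes with at most 1 C1q UMI, Csf1r and at least 2 of Ly6c2, Ccr2, Vcan and Plac8, and the dendritic gate took those with H2-Ab1 and at least 2 dendritic genes. Sex was read from Xist and 4 Y-linked genes.

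Doublets were kept. Scrublet (scanpy 1.11.5) marked 12, 11 and 5 members with papain + lonidamine, papain and PBS, and their removal was an alternative. Others were a stricter rule, a stricter barcode filter, removal of members with markers of other classes, each sex alone, TMM scaling (edgeR 4.0.16), a total without mitochondrial, rRNA and haemoglobin genes, the mean over members, thinning, the UMI minimum, the added count and the gate rule. Promoter windows were matched to genes by symbol and are on GRCm38.p6, a build other than that of the counts, so no other coordinates are given.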

Additional observations from a re-analysis of the deposited data

Results flagged for a closer look

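In 5 cases the female and male members of the same libraries stood at least 2-fold apart from the compared library in opposite directions. Both counting intervals were clear of 0. Of these cases, 4 were for papain over PBS and 1 for papain + lonidamine over papain. Papain + lonidamine over PBS was not part of this count. The sexes are separate mice, pooled within a library, so the difference between them was not tested.

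For papain over PBS, Chil3 had a log2 ratio of 2.28 in female members (234 against 47.8 CPM) and −1.66 in male members (8.26 against 30.1 CPM). Arg1 had 6.37 in female members, with 157 UMIs against 1, and −1.72 in male members, with 2 UMIs against 29. Among all members, those of unassigned sex included, Arg1 was detected in 67 with papain and 8 with PBS, and Chil3 in 50 and 21. The counting intervals do not allow for UMIs that lie together in few barcodes. Tgfb2, a growth factor, had 1.84 in female members, with 20 UMIs against 4, while male members had 0 UMIs against 15. Pfkp, a phosphofructokinase of glycolysis, had 1.24 in female members (64.2 against 26.9 CPM) and −1.15 in male members (19.3 against 45.5 CPM).

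For papain + lonidamine over papain, Rsad2, an interferon-stimulated antiviral gene, had 1.04 in female members (118 against 57.2 CPM) and −2.58 in male members (19.9 against 129 CPM). In all, 496 list and named genes could be read in both sexes for papain over PBS and 19 were opposed with both intervals clear of 0. For papain + lonidamine over papain these were 27 of 482. Read by sign alone for papain over PBS, 356 of 472 list genes with at least 50 UMIs had the same sign in both sexes.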

How the results depend on the processing

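No paired analysis was possible because each group holds 1 library. All results carry counting error only, and the male values rest on 45 papain + lonidamine members.

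Member shares under the stricter rule were 2.18%, 2.34% and 2.84% with papain + lonidamine, papain and PBS, and 1.85%, 2.04% and 2.65% without members that carried markers of other classes. Of male barcodes, 2.82% were members with papain and 4.53% with PBS. Of female barcodes, 2.99%, 3.42% and 2.88% were members with papain + lonidamine, papain and PBS, so PBS was below both papain libraries there.

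Counts of genes moved most with the UMI minimum. For papain over PBS, 614 genes were higher and 466 lower at 50 UMIs, and 4245 and 3707 at 1 UMI. Thinned members gave 516 and 473. The higher count was 519 without members carrying other markers and 483 in males, and the lower count was 481 in females. For papain + lonidamine over papain, 72 were higher and 107 lower at 50 UMIs, and 2716 and 3150 at 1 UMI. Thinning gave 150 and 156, the mean over members gave 404 higher, and the lower count was 152 without other markers and 139 in males. Against PBS, papain + lonidamine members had 501 genes higher and 467 lower at 50 UMIs, and 3948 and 2224 at 1 UMI. The higher count was 596 without other markers and 499 after thinning. TMM scaling, the reduced total, doublet removal, the stricter rule and the stricter barcode filter kept every gene count within 1.5 times.

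Of the 21 list medians of at least 0.5 in size before rounding, 1 changed sign under an alternative: the matrix list for papain + lonidamine over PBS was −0.02 in males. Of the 60 smaller medians, 30 changed sign under at least 1 alternative, 7 of them in females, 11 in males and 12 without members carrying other markers. Among the 30 was the hypoxia list for papain over PBS, which rounds to 0.50 and was −0.06 without members carrying other markers. Each gene ratio was read again under each alternative where its counts allowed. Of the 2925 values this gave, 33 had changed sign, and the cause was not tested. For papain over PBS, Igha was at 0.29 under the stricter rule, 0.15 without other markers and 0.28 in females. In males Chil3 was at −1.66, Arg1 at −1.72, Fn1 at −0.03, Sparc at −0.45 and Hspa1b at −0.77. Ccl17 was at 0.05 under the stricter rule, and without other markers Prdx6 was at −0.09 and Sparc at −0.10.

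For papain + lonidamine over papain, Olfr672 was at −1.45 without doublets and Ccl17 at −0.23 under the stricter rule. In males Ear2 was at −0.13, Ndrg1 at 0.85, Ptgds at 1.81 and Lcn2 at 1.66. Without other markers Ptgds was at 0.31 and Lcn2 at 0.10, and Ptgds was at 0.19 as a mean over members. Between papain + lonidamine and PBS, Igha was at 1.34 under the stricter rule, 0.50 without other markers and 1.03 in females, and Jchain at 1.62 under the stricter rule. In males Chil3 was at −1.61, Arg1 at −1.93, Ccl24 at −1.17, Ccl8 at −1.24, Fn1 at −0.35, Mmp19 at −2.49 and Ecm1 at −0.92. Without other markers Isg20 was at −0.27 and Sparc at −0.03. Counted in the same way over the alternatives, another 533 values of gene ratios moved without changing sign. So did 37 of 120 values of gate shares and 359 of 1620 values of list counts.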

Other observations

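The genes that were higher in papain members were not all higher in neighbouring myeloid cells. For papain over PBS, Il10 had a log2 ratio of 3.52 in the monocyte gate against 3.49 in the members, and Il1rn had 1.69 in the monocyte gate and 1.24 in the dendritic gate against 2.98. Ccl24 was at 2.82 in the monocyte gate and 5.67 in the dendritic gate. Cd40 was at 1.18 and −0.43 against 2.43 in the members. C3 was at 0.16 in the monocyte gate and 2.63 in the dendritic gate, against 3.11 in the members. For the fatty acid binding gene Fabp4 the members had −2.63 while the monocyte gate had 0.79 and the dendritic gate 2.11. These gates hold 101 and 143 papain barcodes and 368 and 115 PBS barcodes, and the differences between sets were not tested.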
